A study of Mus musculus with 24 samples.

Results

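The 31 genes described here encode the glucose carrier, the enzymes and the lactate carriers of glycolysis, the kinases that close the gate from pyruvate to the mitochondria, and the hypoxia-inducible factor (HIF) system with a set of its well-known targets. They were listed by symbol for their role in the pathway, with earlier results of these data known. The symbols matched 32 of the 52636 gene models in each file, because the annotation holds 2 gene models named Aldoa. Of these 32, 30 passed the filter on low counts and were tested among 14435 genes. The models that did not pass were Gapdh and the second Aldoa model (ENSMUSG00000114515). PolyA RNA was sequenced from macrophages grown in culture from mouse bone marrow, in 4 groups of 6 libraries. KO_Pam3 libraries came from cells labelled Ninj1KO and stimulated with Pam3, the usual short name of a synthetic lipopeptide that Toll-like receptor 2 recognises. WT_Pam3 libraries came from C57BL/6 cells given the same stimulus. KO_media and WT_media libraries came from cells of the same 2 genotypes kept in medium with no stimulus. NINJ1 is a membrane protein that ruptures the plasma membrane in lytic cell death. The WT groups are labelled male and the KO groups have no sex label. No source used here gives the strain background of the knockout, the age of the mice, or the dose and duration of Pam3. Nothing in the labels ties the 6 libraries of a group to separate mice or separate dishes. A p-value here therefore weighs a difference against the scatter of these libraries, part or all of which may be technical.

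Glycolysis takes up glucose through carriers such as GLUT1, phosphorylates it with hexokinase, commits it with phosphofructokinase and splits it with aldolase, and the lower steps yield pyruvate and ATP. Lactate dehydrogenase turns pyruvate into lactate, which leaves the cell through monocarboxylate carriers, while pyruvate dehydrogenase kinases keep pyruvate out of the mitochondria. In oxygen, EGLN prolyl hydroxylases mark the HIF alpha subunits HIF-1α (Hif1a) and HIF-2α (Epas1) for destruction. When the subunits are stable they pair with ARNT and bind a short DNA core upstream of many glycolytic genes. Macrophages activated through Toll-like receptors are known for a switch towards glycolysis and lactate release, and HIF-1α is known to take part in it.

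The promoters of Slc2a1 and Slc16a3 (the largest rises after Pam3), Vegfa (the largest fall), Ldha and the PFKFB pair (isozymes that moved in opposite directions) are shown because the core that HIF binds can be read in them directly. The cores searched were ACGTG and GCGTG on both strands, so that CACGT and CACGC count as matches and the palindrome CACGTG counts as 2 matches. CACGTG is also the core of the E-box, which other factors read, so a match does not name a factor. Where RefSeq lists several starts for a gene, the first is shown. The windows run from 250 bases before to 50 bases after a RefSeq gene start (GRCm38.p6) and are printed 5′ to 3′ on the strand of the gene, with matches in capitals.
Slc2a1 (chr4:119108495-119108794, plus strand): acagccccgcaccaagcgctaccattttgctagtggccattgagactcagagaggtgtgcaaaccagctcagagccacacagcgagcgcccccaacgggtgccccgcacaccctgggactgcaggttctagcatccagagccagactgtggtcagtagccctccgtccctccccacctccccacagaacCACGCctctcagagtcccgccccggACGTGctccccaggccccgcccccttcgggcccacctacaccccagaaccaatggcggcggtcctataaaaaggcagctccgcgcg
Slc16a3 (chr11:120948817-120949116, plus strand): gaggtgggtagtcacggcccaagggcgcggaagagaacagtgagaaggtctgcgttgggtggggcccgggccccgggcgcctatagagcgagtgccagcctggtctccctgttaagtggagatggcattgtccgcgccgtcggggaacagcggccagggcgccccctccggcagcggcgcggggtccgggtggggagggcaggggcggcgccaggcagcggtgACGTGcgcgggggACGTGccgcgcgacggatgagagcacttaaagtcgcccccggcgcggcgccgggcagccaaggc
Ldha (chr7:46845554-46845853, plus strand): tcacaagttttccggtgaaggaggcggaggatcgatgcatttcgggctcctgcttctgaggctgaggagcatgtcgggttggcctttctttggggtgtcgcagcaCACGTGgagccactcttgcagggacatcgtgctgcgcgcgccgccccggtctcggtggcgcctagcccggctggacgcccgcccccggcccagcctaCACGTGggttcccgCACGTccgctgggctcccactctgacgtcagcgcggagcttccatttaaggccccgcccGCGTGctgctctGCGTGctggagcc
Pfkfb3 (chr2:11553880-11554179, minus strand): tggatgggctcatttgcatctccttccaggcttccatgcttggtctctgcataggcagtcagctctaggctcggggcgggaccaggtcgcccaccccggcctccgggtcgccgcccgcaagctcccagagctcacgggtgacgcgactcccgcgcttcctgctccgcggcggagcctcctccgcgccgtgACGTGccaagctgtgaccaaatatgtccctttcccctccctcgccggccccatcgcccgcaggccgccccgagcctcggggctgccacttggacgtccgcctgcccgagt
Pfkfb4 (chr9:108991652-108991951, plus strand): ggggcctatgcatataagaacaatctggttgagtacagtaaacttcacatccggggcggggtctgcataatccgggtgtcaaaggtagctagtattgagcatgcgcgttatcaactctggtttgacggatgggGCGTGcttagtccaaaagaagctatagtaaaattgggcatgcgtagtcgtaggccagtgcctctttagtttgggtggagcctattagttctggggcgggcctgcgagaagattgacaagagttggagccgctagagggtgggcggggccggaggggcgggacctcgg
Vegfa (chr17:46032328-46032627, minus strand): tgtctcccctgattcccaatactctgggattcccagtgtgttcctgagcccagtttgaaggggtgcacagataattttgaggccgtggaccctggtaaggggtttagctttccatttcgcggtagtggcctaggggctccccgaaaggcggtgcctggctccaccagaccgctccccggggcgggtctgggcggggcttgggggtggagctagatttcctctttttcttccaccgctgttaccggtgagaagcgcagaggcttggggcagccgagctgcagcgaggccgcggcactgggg
Slc2a1 and Slc16a3 each held 2 matches in this window, and Ldha held 7, of which 4 come from 2 palindromes. Pfkfb3 and Pfkfb4 each held 1. The window of Vegfa held none, which says only that these letters are not in these bases. The second RefSeq starts, not printed, held 2 matches for Vegfa, 4 for Pfkfb3 and 2 for Ldha. RefSeq had 43 promoters for 29 of the 31 symbols, with Ero1l listed as Ero1a. Epas1 and Ndrg1 had no entry. At least 1 match was present in 35 of the 43 promoters (81.4%) and in 27 of the 29 genes, with Gpi1 and Tpi1 as the exceptions. Over all 32851 promoters of the table, ACGTG was present in 19.6%, GCGTG in 32.4% and either in 43.8%. These shares are descriptions and were not tested. The 43 promoters are not all distinct, because windows of close starts overlap, as for starts 2 and 3 of Pfkm, Aldoa and Eno1. The count of 27 genes takes any start of a gene, whereas the shares over the whole table are per promoter.

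Each library held 31302011 to 40663152 uniquely aligned reads on gene models, and the first principal component of the 24 libraries carried 91.8% of the variance. Levels are given as CPM, the counts of a gene per 1e6 counts of its library, after trimmed-mean (TMM) scaling of library sizes. CPM are not corrected for gene length and so compare groups, not genes. The targeted gene Ninj1 averaged 429 ± 25.7 CPM in KO_Pam3 libraries, against 810 ± 176 CPM in WT_Pam3 libraries (SD, n = 6). In media it averaged 167 ± 9.68 CPM in KO libraries, against 307 ± 15.7 CPM in WT libraries. Every KO library lay below every WT library of its treatment, with a log2 difference of -0.92 after Pam3 and -0.88 in media. The counts thus show a lower level of Ninj1 RNA and not its loss. No source used here gives the deleted part of the gene, so gene counts check the genotype label only by this difference. The labelled cell type was checked with 8 macrophage markers including Adgre1, Csf1r, Cd68 and Lyz2, whose summed level was 25900 to 38000 CPM over the 24 libraries. Lyz2 made up most of this sum, with group means from 18900 CPM in KO_media to 21700 CPM in WT_Pam3 libraries. After Pam3, 3 of the 8 markers rose and 4 fell in KO cells, and 4 rose and 4 fell in WT cells. WT_Pam3 replicate 5 stood apart. A chi-square of counts over genes, divided by its degrees of freedom, was 127 to 155 for its 5 pairs with libraries of its own group, against 2.66 to 17.5 for the other 55 pairs within groups. Member calls that change without this library are given with and without it, and other values include it unless stated.

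Pam3 raised most of the pathway in both genotypes. In KO cells 22 members rose and 7 fell after Pam3, and in WT cells 21 rose and 6 fell (edgeR quasi-likelihood test, Benjamini-Hochberg adjusted p under 0.05 over all 14435 genes). Over all genes tested, 85.0% changed in KO cells, with 40.2% higher and 44.8% lower, and 84.8% changed in WT cells, with 40.6% higher and 44.2% lower. The number of members that changed is thus near the background, while the split of the changes leans upward. The median log2 fold change of the 30 members was 0.82 in KO and 0.78 in WT cells, against -0.07 and -0.05 for all genes. A total of 13 members rose and 3 fell by over 2-fold in each genotype. The background for this call was 17.9% higher and 25.3% lower in KO cells and 18.2% higher and 25.1% lower in WT cells. The scaling matters for the sizes as well as for the calls of small changes. Over the alternatives run, the lowest Pam3 change in KO cells was 0.80 for Pfkp, 0.63 for Aldoa and 0.60 for Ldha. It was 0.55 for Pfkfb3, 0.92 for Eno1 and 0.95 for Pgk1, so these rises came below 2-fold. The other rises over 2-fold in KO cells stayed above it, with Egln3 the lowest at 1.03. The falls of Ndrg1 and Aldoc in KO cells reached -1.47 and -1.05. With library size alone, and no TMM factor, the median of all genes was -0.56 in KO and -0.58 in WT cells. The members then split into 17 higher and 8 lower in KO and 16 higher and 8 lower in WT cells. All genes split into 3685 higher and 8935 lower in KO cells, against 5803 and 6470 with TMM, and into 3584 higher and 9055 lower in WT cells, against 5859 and 6376 with TMM.

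**Figure D1:**
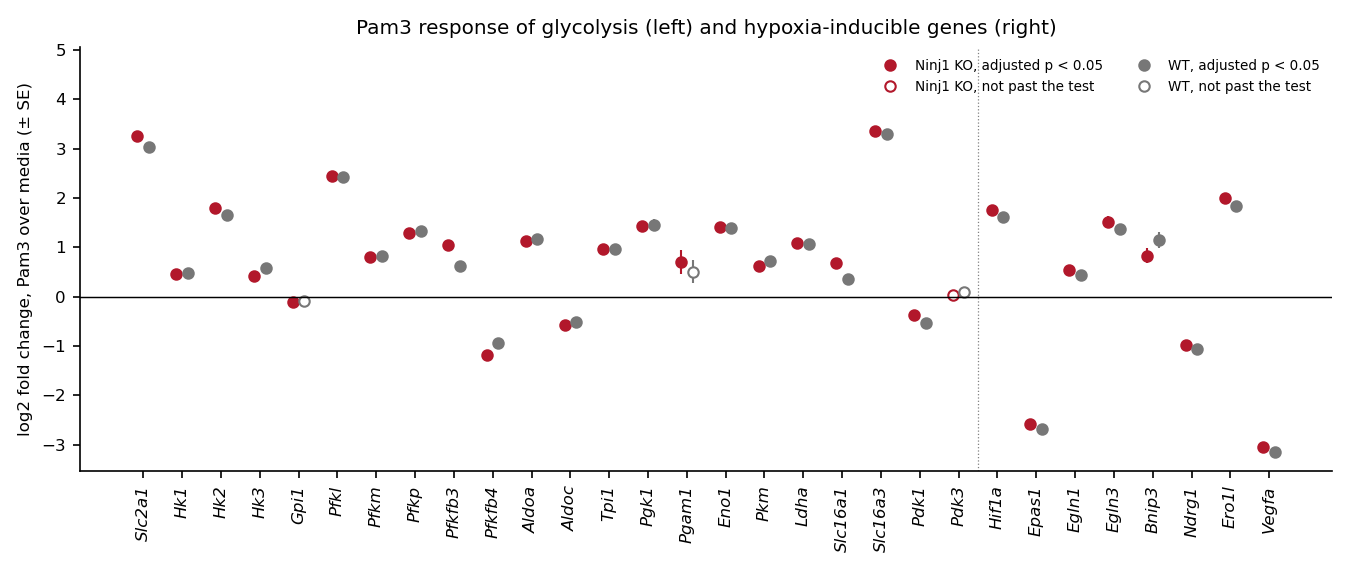
Log2 fold change of Pam3 over media (± SE) for the 30 tested members, in pathway order on the left of the dotted line and for the HIF system on the right, in Ninj1 KO cells (red) and WT cells (grey); filled points have an adjusted p under 0.05. Slc2a1, Pfkl and Slc16a3 stand highest in both genotypes, and Vegfa and Epas1 lowest.

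The largest rises stood at the entry and the exit of the pathway. Slc2a1, which encodes the glucose carrier GLUT1, ranged from 231 to 267 CPM (median 247) in KO_Pam3 libraries, against 24.1 to 27.1 CPM (median 26.3) in KO_media libraries. WT libraries spanned 224 to 245 CPM (median 235) in WT_Pam3 libraries, against 25.8 to 31.2 CPM (median 28.9) in WT_media libraries. All 12 Pam3 libraries lay far above all 12 media libraries, a rise of 9.55-fold in KO cells (log2 3.26, SE 0.0491, adjusted p = 2.9e-28) and 8.24-fold in WT cells (log2 3.04, SE 0.0487, adjusted p = 1.03e-27). Slc16a3, which encodes the lactate exporter MCT4, ranged from 236 to 279 CPM (median 269) in KO_Pam3 libraries, against 23.7 to 27.2 CPM (median 26.0) in KO_media libraries. Its WT range was 213 to 304 CPM (median 250) after Pam3, against 24.2 to 27.8 CPM (median 25.6) in media. This was the largest rise among the members in both genotypes, 10.2-fold in KO cells (log2 3.35, SE 0.0672, adjusted p = 1.5e-25) and 9.84-fold in WT cells (log2 3.30, SE 0.0671, adjusted p = 2e-25). The highest WT_Pam3 value, 304 CPM, was that of replicate 5, and the WT change without it was 3.24.

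Hexokinases phosphorylate glucose, and the 3 isozymes rose by different amounts. Hk2, the inducible isozyme, ranged from 143 to 163 CPM (median 154) in KO_Pam3 libraries, against 39.5 to 46.8 CPM (median 44.2) in KO_media libraries. In WT cells it ranged from 111 to 157 CPM (median 138) after Pam3, against 40.9 to 46.9 CPM (median 43.6) in media. The groups did not overlap, and the log2 change was 1.79 (SE 0.0611) in KO and 1.66 (SE 0.061) in WT cells, with adjusted p-values of 2.68e-20 and 1.45e-19. Hk1, the broadly expressed isozyme, averaged 127 ± 5.75 CPM in KO_Pam3 and 92.2 ± 3.66 CPM in KO_media libraries (SD, n = 6), and 125 ± 5.39 CPM in WT_Pam3 and 89.7 ± 1 CPM in WT_media libraries. Its log2 rise of 0.46 in KO and 0.48 in WT cells had adjusted p-values of 4.54e-12 and 2.35e-12, and it became -0.02 and -0.05 with library size alone. Hk3, the isozyme typical of myeloid cells, averaged 601 ± 34.5 CPM in KO_Pam3 and 452 ± 26.3 CPM in KO_media libraries, and 745 ± 59.8 CPM in WT_Pam3 and 498 ± 30.5 CPM in WT_media libraries. It rose by 0.41 in KO cells (adjusted p = 7.1e-08) and 0.58 in WT cells (adjusted p = 8.84e-11), and with library size alone the values were -0.07 and 0.06. Hk3 stayed the main isozyme per length. On the size-factor-adjusted RPKM that the authors deposited, Hk3 held 77.0% ± 1.54 of the hexokinase total in KO_Pam3 and 83.4% ± 0.758 in KO_media libraries, and 81.5% ± 1.96 in WT_Pam3 and 84.9% ± 0.816 in WT_media libraries. The share of Hk2 was 11.7% ± 0.875 in KO_Pam3 against 4.86% ± 0.349 in KO_media libraries, and 9.06% ± 1.34 in WT_Pam3 against 4.45% ± 0.357 in WT_media libraries.

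Gpi1, the isomerase between hexokinase and phosphofructokinase, changed little under TMM scaling. It averaged 68.4 ± 4.96 CPM in KO_Pam3 and 73.6 ± 1.83 CPM in KO_media libraries, and 64.4 ± 3.98 CPM in WT_Pam3 and 68.3 ± 2.70 CPM in WT_media libraries. The groups overlapped, with a log2 change of -0.10 (adjusted p = 0.0367) in KO and -0.08 (adjusted p = 0.0891) in WT cells. With library size alone the values were -0.59 in KO and -0.61 in WT cells (adjusted p = 4.5e-12 and 2.5e-12). The KO call did not hold with DESeq2 (-0.07, adjusted p = 0.162) and was lost without any 1 of 14 libraries (adjusted p 0.0543 to 0.127). In WT cells the value without WT_Pam3 replicate 5 was -0.11, with an adjusted p of 0.0133, and without WT_media replicate 3 it was -0.12, with an adjusted p of 0.0221.

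Phosphofructokinase-1 commits sugar to glycolysis, and its liver-type subunit carried the rise. Pfkl ranged from 181 to 213 CPM (median 208) in KO_Pam3 libraries, against 33.5 to 41.7 CPM (median 37.1) in KO_media libraries. WT libraries spanned 173 to 245 CPM (median 200) after Pam3, against 37.2 to 38.9 CPM (median 37.7) in media. The rise was 5.44-fold in KO (log2 2.44, SE 0.064, adjusted p = 6.36e-23) and 5.39-fold in WT cells (log2 2.43, SE 0.0639, adjusted p = 7.16e-23). The platelet-type Pfkp averaged 138 ± 4.48 CPM in KO_Pam3 and 56.5 ± 1.75 CPM in KO_media libraries, and 134 ± 7.12 CPM in WT_Pam3 and 53.6 ± 2.13 CPM in WT_media libraries (log2 1.29 in KO and 1.32 in WT cells, adjusted p = 1.32e-21 and 8.13e-22). Pfkp shares 748 exonic bases with Pitrm1 on the opposite strand, a gene with a mean of 83.9 CPM, and reads of the 2 genes cannot be told apart there without strand. The muscle-type Pfkm was the least abundant, at 21.7 ± 1.28 CPM in KO_Pam3 and 12.4 ± 0.638 CPM in KO_media libraries, with 22.6 ± 1.67 CPM in WT_Pam3 and 12.7 ± 0.908 CPM in WT_media libraries. Its log2 rise was 0.80 in KO (adjusted p = 2.24e-13) and 0.83 in WT cells (adjusted p = 9.49e-14). Per length, Pfkl held 58.0% ± 1.39 of the 3 subunits in KO_Pam3 against 36.6% ± 2.01 in KO_media libraries, and 58.4% ± 2.43 in WT_Pam3 against 37.7% ± 0.66 in WT_media libraries. Pfkp held the largest share in media, at 48.1% ± 1.80 in KO_media and 46.4% ± 1.47 in WT_media libraries, so the leading subunit differed between stimulated and resting cells.

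The PFKFB enzymes make and break the sugar bisphosphate that activates phosphofructokinase-1, and the 2 isozymes among the members moved in opposite directions. Pfkfb3, whose enzyme has strong kinase activity, ranged from 124 to 148 CPM (median 132) in KO_Pam3 libraries, against 64.1 to 67.3 CPM (median 65.6) in KO_media libraries. Its WT range was 86.9 to 137 CPM (median 121) after Pam3, against 76.0 to 78.7 CPM (median 76.9) in media. It rose 2.05-fold in KO (log2 1.04, SE 0.0684, adjusted p = 8.75e-14) and 1.53-fold in WT cells (log2 0.61, SE 0.068, adjusted p = 4.19e-09). Pfkfb4 ranged from 30.0 to 34.7 CPM (median 31.4) in KO_Pam3 libraries, against 69.7 to 74.0 CPM (median 71.3) in KO_media libraries. In WT cells it ranged from 33.9 to 38.8 CPM (median 34.6) after Pam3, against 65.1 to 71.5 CPM (median 67.2) in media. It fell by 1.18 on the log2 scale in KO (SE 0.0399, adjusted p = 2.13e-20) and by 0.94 in WT cells (SE 0.0397, adjusted p = 3.59e-18). Per length, Pfkfb3 held 72.9% ± 1.84 of the pair in KO_Pam3 against 36.6% ± 0.692 in KO_media libraries, and 67.6% ± 4.67 in WT_Pam3 against 41.9% ± 1.02 in WT_media libraries. With library size alone the WT rise of Pfkfb3 was 0.09 (adjusted p = 0.207), and without WT_Pam3 replicate 5 it was 0.69.

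Aldolase splits the phosphorylated sugar, and its main isozyme rose while the minor one fell. Aldoa ranged from 505 to 598 CPM (median 570) in KO_Pam3 libraries, against 251 to 271 CPM (median 263) in KO_media libraries. WT libraries spanned 524 to 731 CPM (median 563) after Pam3, against 242 to 270 CPM (median 258) in media. The log2 rise was 1.12 (SE 0.0595, adjusted p = 7.13e-16) in KO and 1.17 (SE 0.0595, adjusted p = 2.35e-16) in WT cells, or 1.10 in WT cells without replicate 5, the library at 731 CPM. Aldoc, the brain-type isozyme, averaged 13.7 ± 0.829 CPM in KO_Pam3 and 20.4 ± 0.652 CPM in KO_media libraries, and 16.3 ± 1.5 CPM in WT_Pam3 and 23.3 ± 0.781 CPM in WT_media libraries. It fell by 0.57 in KO (adjusted p = 6.6e-11) and by 0.52 in WT cells (adjusted p = 4.1e-10) on the log2 scale. Per length, Aldoc was 1.47% ± 0.0726 of the pair in KO_Pam3 and 4.58% ± 0.127 in KO_media libraries, and 1.70% ± 0.0981 in WT_Pam3 and 5.27% ± 0.17 in WT_media libraries. The second Aldoa model lay at 0 to 0.0585 CPM in Pam3 libraries and at 0.0248 to 0.23 CPM in media libraries, too low to test.

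The lower enzymes rose as well. Tpi1, the triose isomerase, averaged 213 ± 13.7 CPM in KO_Pam3 and 109 ± 3.10 CPM in KO_media libraries, and 212 ± 38.1 CPM in WT_Pam3 and 108 ± 2.87 CPM in WT_media libraries (log2 0.96 in KO and 0.97 in WT cells, adjusted p = 1.93e-12 and 1.52e-12). Pgk1, the first ATP-yielding kinase, averaged 4.81 ± 0.682 CPM in KO_Pam3 and 1.78 ± 0.206 CPM in KO_media libraries, and 4.98 ± 0.815 CPM in WT_Pam3 and 1.81 ± 0.212 CPM in WT_media libraries (log2 1.43 and 1.46, adjusted p = 3.61e-12 and 2.27e-12). Eno1, an enolase, averaged 72.3 ± 4.20 CPM in KO_Pam3 and 27.3 ± 1.11 CPM in KO_media libraries, and 68.9 ± 13.5 CPM in WT_Pam3 and 26.2 ± 1.19 CPM in WT_media libraries (log2 1.41 and 1.40, adjusted p = 2.83e-15 and 3.47e-15). These 3 enzymes rose in both genotypes without overlap between Pam3 and media libraries. Without WT_Pam3 replicate 5 the WT changes were 0.88 for Tpi1, 1.38 for Pgk1 and 1.28 for Eno1. Pgam1, the mutase between Pgk1 and Eno1, was counted at only 0.445 to 0.941 CPM in Pam3 libraries and 0.23 to 0.649 CPM in media libraries. It passed the test in KO cells (log2 0.70, SE 0.235, adjusted p = 0.00757) and not in WT cells (log2 0.50, SE 0.234, adjusted p = 0.0517), a difference that was itself 0.21 with an adjusted p of 0.813. The WT value passed under several alternatives, with DESeq2 for example at 0.53 (adjusted p = 0.0339), and without WT_Pam3 replicate 5 it was 0.36 (adjusted p = 0.161). The log2 value of Pgam1 with library size alone was 0.22 in KO (adjusted p = 0.369) and -0.02 in WT cells (adjusted p = 0.928).

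Pkm, the pyruvate kinase of macrophages, ranged from 173 to 198 CPM (median 190) in KO_Pam3 libraries, against 114 to 127 CPM (median 123) in KO_media libraries. Its WT range was 174 to 274 CPM (median 184) after Pam3, against 113 to 123 CPM (median 120) in media. The rise was moderate, with a log2 change of 0.63 in KO (SE 0.0743, adjusted p = 1.27e-08) and 0.73 in WT cells (SE 0.0744, adjusted p = 7.58e-10), or 0.62 in WT cells without replicate 5. Scaled by library size alone, Pkm had a log2 difference of 0.15 in KO (adjusted p = 0.0637) and 0.21 in WT cells (adjusted p = 0.0102). Gene counts do not separate its M1 and M2 splice forms, and 767 of its exonic bases are shared with Gm49759 on the same strand. Ldha, which makes lactate from pyruvate, ranged from 261 to 297 CPM (median 276) in KO_Pam3 libraries, against 126 to 136 CPM (median 131) in KO_media libraries. In WT cells it ranged from 233 to 348 CPM (median 262) after Pam3, against 126 to 133 CPM (median 129) in media. Ldha thus rose 2.12-fold in KO (log2 1.08, adjusted p = 3.46e-15) and 2.10-fold in WT cells (log2 1.07, adjusted p = 4.23e-15), with no overlap. Without WT_Pam3 replicate 5 the WT log2 change of Ldha was 0.99. Slc16a1, which encodes the carrier MCT1, averaged 12 ± 1.38 CPM in KO_Pam3 and 7.41 ± 0.419 CPM in KO_media libraries, and 9.90 ± 1.38 CPM in WT_Pam3 and 7.78 ± 0.753 CPM in WT_media libraries. Its rise was 0.69 in KO (adjusted p = 2.89e-08) and 0.35 in WT cells (adjusted p = 0.000532), and the WT value turned to -0.17 with library size alone. Per length, Slc16a3 held 95.6% ± 0.50 of the 2 carriers in KO_Pam3 against 77.7% ± 1.13 in KO_media libraries, and 96.2% ± 0.709 in WT_Pam3 against 76.6% ± 2.42 in WT_media libraries. This share leaves out Slc16a7, a carrier outside the members. Slc16a7 averaged 9.78 ± 1.38 CPM in KO_Pam3 and 69.3 ± 2.6 CPM in KO_media libraries. Its WT averages were 11.3 ± 1.5 CPM after Pam3 and 73.5 ± 2.87 CPM in media.

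The kinases that switch pyruvate dehydrogenase off did not rise with the pathway. Pdk1, a classical HIF target, averaged 38.2 ± 2.15 CPM in KO_Pam3 and 49.3 ± 1.20 CPM in KO_media libraries, and 35.8 ± 4.43 CPM in WT_Pam3 and 52.3 ± 0.415 CPM in WT_media libraries. It fell by 0.37 on the log2 scale in KO (adjusted p = 8.15e-07) and by 0.54 in WT cells (adjusted p = 7.55e-10). Pdk3 averaged 8.64 ± 0.577 CPM in KO_Pam3 and 8.47 ± 0.43 CPM in KO_media libraries, and 9.16 ± 0.978 CPM in WT_Pam3 and 8.55 ± 0.418 CPM in WT_media libraries. It did not pass the test in either genotype, with a log2 difference of 0.03 (95% interval -0.10 to 0.16) in KO and 0.10 (-0.03 to 0.23) in WT cells, and with library size alone it was -0.45 and -0.42.

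**Figure D2:**
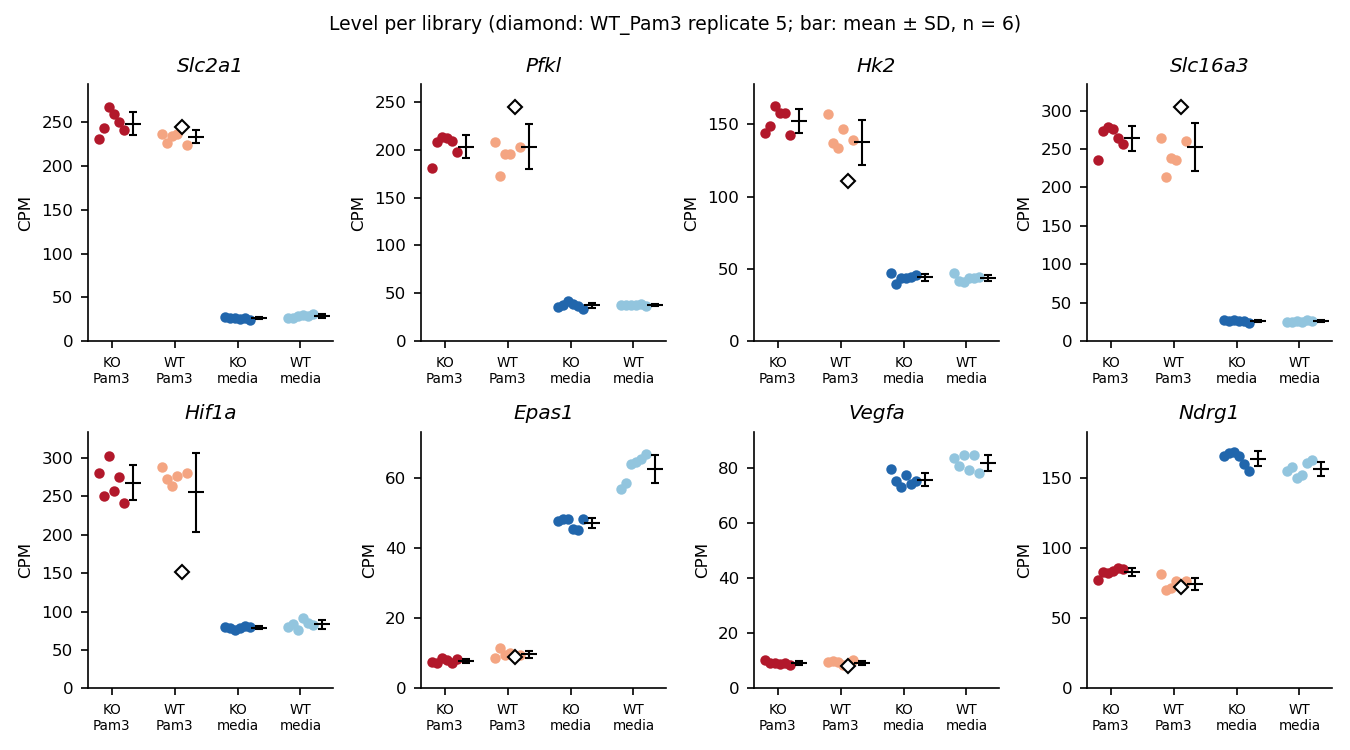
CPM of 8 members in each of the 24 libraries, by group, with the bar at the mean ± SD (n = 6) and WT_Pam3 replicate 5 drawn as a diamond; every axis starts at 0. Slc2a1, Pfkl, Hk2, Slc16a3 and Hif1a lie higher in all Pam3 libraries than in all media libraries, and Epas1, Vegfa and Ndrg1 lie lower.

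The HIF alpha subunits moved apart. Hif1a (chr12:73901375-73947530, GRCm38, plus strand) ranged from 241 to 303 CPM (median 266) in KO_Pam3 libraries, against 75.4 to 81.0 CPM (median 79.2) in KO_media libraries. WT libraries spanned 151 to 288 CPM (median 274) after Pam3, against 76.5 to 92.2 CPM (median 82.8) in media. It rose 3.39-fold in KO (log2 1.76, SE 0.10, adjusted p = 3.24e-15) and 3.07-fold in WT cells (log2 1.62, SE 0.10, adjusted p = 2.03e-14). The value of 151 CPM belongs to WT_Pam3 replicate 5 and the other 5 lay at 263 to 288 CPM, and without it the WT change was 1.73. Epas1 ranged from 7.17 to 8.53 CPM (median 7.79) in KO_Pam3 libraries, against 45.1 to 48.2 CPM (median 48.0) in KO_media libraries. Its WT range was 8.68 to 11.5 CPM (median 9.54) after Pam3, against 56.7 to 66.7 CPM (median 64.2) in media. The fall was 6.01-fold in KO (log2 -2.59, SE 0.0599, adjusted p = 3.9e-24) and 6.43-fold in WT cells (log2 -2.69, SE 0.0591, adjusted p = 1.21e-24). Per length, Hif1a made up 97.1% ± 0.314 of the pair in KO_Pam3 against 62.0% ± 1.15 in KO_media libraries, and 96.1% ± 0.997 in WT_Pam3 against 56.4% ± 1.93 in WT_media libraries. RNA levels do not show the amount of either protein, which oxygen controls after translation.

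The prolyl hydroxylases, which are both oxygen sensors and HIF targets, rose. Egln1 averaged 56.9 ± 2.35 CPM in KO_Pam3 and 39.1 ± 1.85 CPM in KO_media libraries, and 53.8 ± 4.34 CPM in WT_Pam3 and 39.7 ± 1.23 CPM in WT_media libraries. Its log2 rise was 0.54 in KO (adjusted p = 2.25e-11) and 0.44 in WT cells (adjusted p = 1.52e-09), and with library size alone it was 0.06 and -0.08. Egln3 was low but rose more, at 2.22 ± 0.254 CPM in KO_Pam3 and 0.775 ± 0.0875 CPM in KO_media libraries, with 2.16 ± 0.257 CPM in WT_Pam3 and 0.84 ± 0.0873 CPM in WT_media libraries (log2 1.52 and 1.36, adjusted p = 4.69e-13 and 4.46e-12). Egln2, which is not a member, averaged 175 ± 11.4 CPM in KO_Pam3 and 72.1 ± 3.38 CPM in KO_media libraries. Its WT averages were 182 ± 28.2 CPM after Pam3 and 71.8 ± 3.55 CPM in media.

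The remaining HIF targets did not move as a block. Vegfa, the angiogenic growth factor, ranged from 8.52 to 10.3 CPM (median 9.05) in KO_Pam3 libraries, against 73.1 to 79.3 CPM (median 75.1) in KO_media libraries. In WT cells it ranged from 8.03 to 10.1 CPM (median 9.40) after Pam3, against 78.1 to 84.7 CPM (median 81.9) in media. This was the largest fall among the members, 8.29-fold in KO (log2 -3.05, SE 0.0503, adjusted p = 1.99e-27) and 8.86-fold in WT cells (log2 -3.15, SE 0.0506, adjusted p = 1.14e-27). Ndrg1, a gene often used as a hypoxia marker, ranged from 77.2 to 86.0 CPM (median 83.2) in KO_Pam3 libraries, against 155 to 169 CPM (median 166) in KO_media libraries. WT libraries spanned 69.9 to 81.4 CPM (median 74.2) after Pam3, against 150 to 163 CPM (median 157) in media. Its fall was 0.99 in KO (adjusted p = 7.19e-19) and 1.07 in WT cells (adjusted p = 1.25e-19) on the log2 scale. Ero1l, an oxidase of disulfide bond formation in the endoplasmic reticulum, went the other way, at 57.5 ± 4.19 CPM in KO_Pam3 and 14.5 ± 0.491 CPM in KO_media libraries, with 51.5 ± 8.53 CPM in WT_Pam3 and 14.4 ± 0.839 CPM in WT_media libraries (log2 1.99 and 1.84, adjusted p = 1.7e-18 and 9.8e-18). Bnip3, a mitophagy receptor, was counted at only 1.66 ± 0.227 CPM in KO_Pam3 and 0.923 ± 0.235 CPM in KO_media libraries, with 1.87 ± 0.365 CPM in WT_Pam3 and 0.844 ± 0.151 CPM in WT_media libraries. It rose by 0.83 in KO (adjusted p = 2.53e-05) and 1.15 in WT cells (adjusted p = 2.11e-07).

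The genes around the pathway were read from lists of neighbouring steps. Of 12 tested other isozymes and sugar carriers, 4 rose and 7 fell after Pam3 in each genotype, with a median log2 change of -0.54 in KO and -0.58 in WT cells. Slc2a6, which encodes the lysosomal carrier GLUT6, stood at 1410 ± 58.4 CPM in KO_Pam3 and 55.9 ± 6.84 CPM in KO_media libraries, against 1660 ± 195 CPM in WT_Pam3 and 48.8 ± 1.12 CPM in WT_media libraries (log2 4.65 and 5.09). The carriers Slc2a3 (GLUT3), Slc2a8 and Slc16a7 (MCT2) fell, with log2 changes of -1.94, -3.43 and -2.82 in KO and -1.88, -3.27 and -2.70 in WT cells. Among 10 oxygen-sensing genes and HIF partners, 9 rose and 1 fell in each genotype, with a median of 0.91 in both. Siah2, a ubiquitin ligase for EGLN3, rose by 3.06 in KO and 3.21 in WT cells, Egln2 by 1.28 and 1.34, Cul2 by 1.06 and 1.09 and Vhl by 0.76 and 0.72. Of 26 tested other HIF-inducible genes, 16 rose and 7 fell in each genotype, with a median of 0.66 in KO and 0.77 in WT cells. Nos2, inducible nitric oxide synthase, was at 359 ± 40.8 CPM in KO_Pam3 and 0.109 ± 0.103 CPM in KO_media libraries, with 387 ± 47.1 CPM in WT_Pam3 and 0.0963 ± 0.0584 CPM in WT_media libraries. Rab20 rose by 3.41 and 3.59 and Ier3 by 3.31 and 3.36, while Mxi1, a MAX-binding repressor, fell by 3.18 in KO and 3.21 in WT cells.

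Pathways that branch from glycolysis changed in both directions. In the pentose phosphate pathway 4 of 9 genes rose in each genotype, and 2 fell in KO and 3 in WT cells. Pgd and Tkt rose, by 1.14 and 0.69 in KO and by 1.20 and 0.80 in WT cells, and H6pd and Shpk fell, with log2 changes of -2.11 and -2.52 in KO and -2.27 and -2.52 in WT cells. At the entry of pyruvate to the mitochondria 6 of 12 genes rose in each genotype, and 5 fell in KO and 4 in WT cells. Dld and Pdha1, subunits of the dehydrogenase complexes, rose by 1.55 and 0.77 in KO and by 1.56 and 0.77 in WT cells. Pdk2 and Pdp1, a kinase and a phosphatase of the complex, fell, with log2 changes of -4.82 and -1.96 in KO and -4.54 and -2.13 in WT cells. Of the gluconeogenic genes 3 of 7 were high enough to test. Pck2, the mitochondrial carboxykinase, had a log2 change of -4.33 in KO and -4.16 in WT cells, and G6pc3, a glucose phosphatase, -0.54 in KO and -0.48 in WT cells. Pcx, pyruvate carboxylase, rose by 0.46 in KO and 0.57 in WT cells.

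Between genotypes in media the pathway differed little. Of the 30 tested members 0 were higher and 2 lower in KO_media than in WT_media libraries, where 1.92% of all genes tested were called higher, 1.12% lower and 3.03% in all. At an unadjusted p under 0.05 the counts were 2 higher and 6 lower, and with DESeq2 they were 0 higher and 4 lower. Epas1 (chr17:86753700-86833410, GRCm38, plus strand) ranged from 45.1 to 48.2 CPM (median 48.0) in KO_media libraries, against 56.7 to 66.7 CPM (median 64.2) in WT_media libraries. The groups did not overlap, and the log2 difference was -0.41 (SE 0.0522, adjusted p = 3.28e-05), a call that held under every alternative run and without any 1 library. Aldoc (chr11:78322968-78327781, plus strand) ranged from 19.7 to 21.3 CPM (median 20.3) in KO_media libraries, against 22.3 to 24.6 CPM (median 23.2) in WT_media libraries. Its difference of -0.19 (SE 0.0493, adjusted p = 0.0299) had an adjusted p of 0.0522 to 0.0782 without any 1 of KO_media replicates 1, 4, 5 and 6 and WT_media replicates 4 and 6, which left 1 member called. Pfkfb3 ranged from 64.1 to 67.3 CPM (median 65.6) in KO_media libraries, against 76.0 to 78.7 CPM (median 76.9) in WT_media libraries. These groups did not overlap either, but the difference of -0.23 had an adjusted p of 0.0593 in the fit of all 24 libraries, which share 1 estimate of the spread. It was 1.23e-05 in a fit of the 12 media libraries alone, 0.000324 without WT_Pam3 replicate 5 and 0.0422 without WT_Pam3 replicate 1. Vegfa, at 75.6 ± 2.26 CPM in KO_media and 81.7 ± 2.91 CPM in WT_media libraries, had an adjusted p of 0.211, or 0.0238 without WT_Pam3 replicate 5, which brought the members called lower to 4.

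After Pam3 the KO cells differed from WT cells in 5 members, by 1.11-fold to 1.24-fold. Of the 30 tested members 1 was higher and 4 lower in KO_Pam3 than in WT_Pam3 libraries, where 1.31% of all genes were called higher, 2.75% lower and 4.06% in all. With library size alone 3 members were higher and 3 lower, and all genes split into 412 higher and 220 lower, against 189 and 397 with TMM. Hk3 (chr13:55005985-55021385, GRCm38, minus strand) ranged from 563 to 661 CPM (median 600) in KO_Pam3 libraries, against 660 to 829 CPM (median 759) in WT_Pam3 libraries. Only the highest KO library reached the lowest WT library, and the log2 difference of -0.31 (SE 0.0531, adjusted p = 0.000609) was past the test under every alternative run and without any 1 library. Hk3 lies on chromosome 13, as the targeted gene Ninj1 does, and the strain background of the knockout is not given. Whether sequence differences near the targeted gene have a part in the Hk3 difference was not tested. Epas1 ranged from 7.17 to 8.53 CPM (median 7.79) in KO_Pam3 libraries, against 8.68 to 11.5 CPM (median 9.54) in WT_Pam3 libraries. The groups did not overlap, and the difference was -0.31 (SE 0.0644, adjusted p = 0.00409), or -0.30 with an adjusted p of 0.0775 in a fit of the 12 Pam3 libraries alone. Aldoc ranged from 12.4 to 14.7 CPM (median 13.8) in KO_Pam3 libraries, against 14.6 to 19.0 CPM (median 16.1) in WT_Pam3 libraries. Its difference was -0.25 (SE 0.053, adjusted p = 0.00589), or -0.20 without WT_Pam3 replicate 5, the library at 19.0 CPM. In the fit of the 12 Pam3 libraries it was -0.23 with an adjusted p of 0.105. Hk3, Epas1 and Aldoc each stayed past the test without any 1 library of the 24.

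The other 2 calls after Pam3 were less firm. Pfkfb4 ranged from 30.0 to 34.7 CPM (median 31.4) in KO_Pam3 libraries, against 33.9 to 38.8 CPM (median 34.6) in WT_Pam3 libraries. The groups overlapped, the difference was -0.16 (SE 0.0405, adjusted p = 0.0253), and the adjusted p was 0.0555 to 0.0805 without any 1 of KO_Pam3 replicates 1, 3 and 4, the 6 KO_media libraries and WT_media replicates 2, 4, 5 and 6. It was 0.156 with library size alone, 0.273 without the filter and 0.215 in the fit of the 12 Pam3 libraries. Ndrg1 ranged from 77.2 to 86.0 CPM (median 83.2) in KO_Pam3 libraries, against 69.9 to 81.4 CPM (median 74.2) in WT_Pam3 libraries. It was the 1 member called higher, by 0.15 (SE 0.0389, adjusted p = 0.0238), and the adjusted p was 0.0526 to 0.0685 without any 1 of KO_Pam3 replicates 4 and 5 and WT_Pam3 replicates 2 and 3. In the fit of the 12 Pam3 libraries it was 0.101. Without KO_Pam3 replicate 2 or WT_Pam3 replicate 6 Slc16a1 was called higher too (0.31 and 0.32, adjusted p = 0.0459 and 0.033), and without WT_Pam3 replicate 1 Pfkfb3 was (0.24, adjusted p = 0.0411). Eno1 was 0.07 higher in KO_Pam3 libraries (adjusted p = 0.706), or 0.19 with an adjusted p of 0.00309 without WT_Pam3 replicate 5, in which it stood at 95.7 CPM. None of the 6 members with the largest Pam3 rises in KO cells was called between genotypes after Pam3. The KO over WT log2 difference was 0.06 for Slc16a3 (95% interval -0.06 to 0.19), 0.09 for Slc2a1 (0.00 to 0.18) and 0.00 for Pfkl (-0.12 to 0.12). It was 0.16 for Ero1l (0.00 to 0.32), 0.15 for Hk2 (0.03 to 0.27, adjusted p = 0.187) and 0.07 for Hif1a (-0.13 to 0.27).

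**Figure D3:**
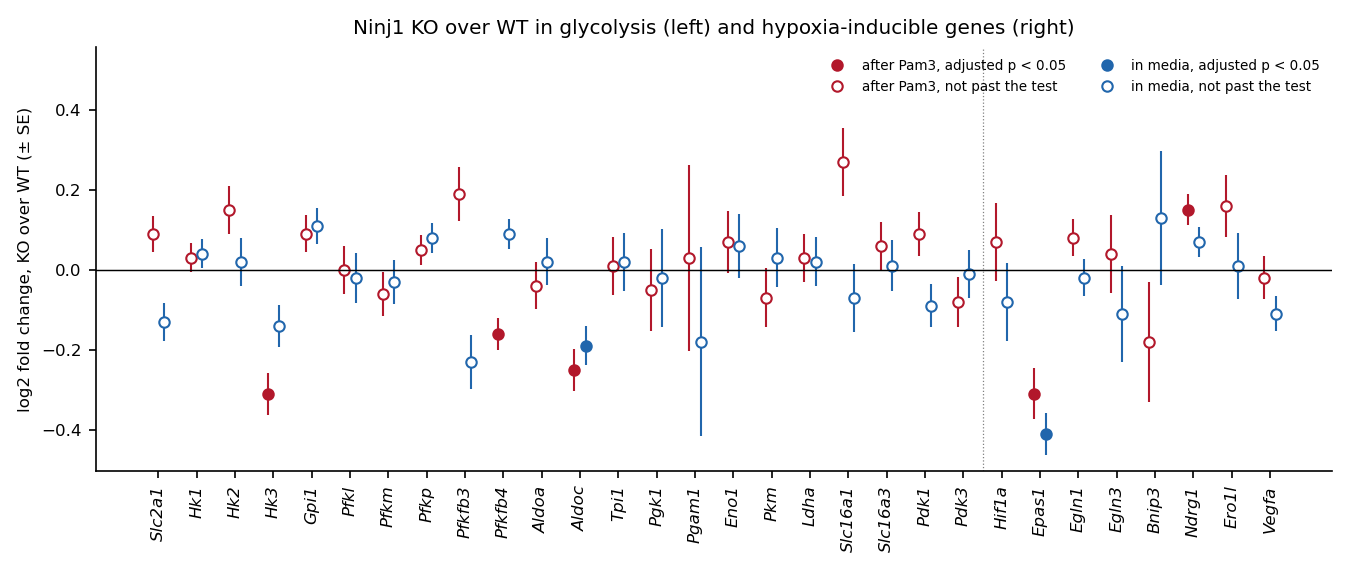
Log2 fold change of Ninj1 KO over WT (± SE) for the 30 tested members, after Pam3 (red) and in media (blue), in pathway order with the HIF system to the right of the dotted line; filled points have an adjusted p under 0.05. The filled points are Hk3, Pfkfb4, Aldoc, Epas1 and Ndrg1 after Pam3, and Aldoc and Epas1 in media, and the one farthest from 0 is Epas1 in media at -0.41.

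Markers of other cells moved with genotype beside these members. Granulocyte markers summed to 48.7 to 56.9 CPM in KO_Pam3 and 39.1 to 62.2 CPM in WT_Pam3 libraries, and to 81.6 to 94.2 CPM in KO_media and 59.7 to 70.8 CPM in WT_media libraries. Of 7 tested, 4 were higher in KO_media and 2 in KO_Pam3, among them Ngp in both, while Ly6g was at most 0.031 CPM on average in any group. Stromal and endothelial markers summed to 137 to 184 CPM in KO_Pam3 and 98.3 to 139 CPM in WT_Pam3 libraries, and to 52.2 to 93.9 CPM in KO_media and 38.6 to 49.4 CPM in WT_media libraries. Of 8 tested, 5 were higher in KO_media and 3 in KO_Pam3, with Col1a2 and Col3a1 in both. After Pam3 most of the sum was Pdgfrb, at 98.1 ± 8.88 CPM in KO_Pam3 and 83.8 ± 11.4 CPM in WT_Pam3 libraries, against 2.36 ± 0.622 CPM in KO_media and 1.56 ± 0.286 CPM in WT_media libraries. Lymphocyte markers summed to 1.53 to 2.35 CPM in KO_Pam3 and 2.08 to 2.68 CPM in WT_Pam3 libraries, and to 1.54 to 2.22 CPM in KO_media and 1.91 to 2.36 CPM in WT_media libraries, and none of 3 tested differed by genotype. Dendritic cell markers summed to 10.5 to 13.1 CPM in KO_Pam3 and 9.5 to 13.7 CPM in WT_Pam3 libraries, with Zbtb46 higher in KO_Pam3, and to 5.67 to 7.04 CPM in KO_media and 5.2 to 5.98 CPM in WT_media libraries. Among 8 macrophage markers Cd68 and Mertk were lower and Itgam higher in KO_Pam3, and Fcgr1 was higher in KO_media. The part of these shifts in the differences of Epas1, Hk3, Aldoc, Pfkfb4 and Ndrg1 was not tested, and none of these sums was used in a fit. In bulk RNA fewer cells of a type cannot be told apart from less RNA per cell. Of the neighbouring lists, Slc2a6 was lower in KO_Pam3 (-0.24, adjusted p = 0.0398). Tfrc, the transferrin receptor, was lower in KO cells both after Pam3 (-0.48, adjusted p = 0.00248) and in media (-0.36, adjusted p = 0.0326), and Hmox1, haem oxygenase, was lower in KO_Pam3 (-0.17, adjusted p = 0.0382).

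The Pam3 response itself was called different between genotypes in 2 members, the PFKFB pair, and each call was lost when certain single libraries were left out. The difference of the responses was called for 1 member upward and 1 downward of 30, where 0.173% of all genes were called higher, 0.589% lower and 0.762% in all. With library size alone all genes split into 34 higher and 54 lower, against 25 and 85 with TMM. Pfkfb3 rose more in KO cells, by 1.04 against 0.61 in WT cells, a difference of 0.42 (SE 0.0959, 95% interval 0.23 to 0.62, adjusted p = 0.0312). All KO_media libraries lay below all WT_media libraries, whereas KO_Pam3 libraries averaged 134 ± 9.83 CPM and WT_Pam3 libraries 118 ± 17.3 CPM with overlap. Without WT_Pam3 replicate 5, at 86.9 CPM, the difference was 0.35 (adjusted p = 0.00133), and without any 1 of KO_Pam3 replicates 2 to 5, WT_Pam3 replicates 2 and 3 and WT_media replicates 3 to 5 the adjusted p was 0.0511 to 0.0626. Pfkfb4 fell more in KO cells, by 1.18 against 0.94 in WT cells, a difference of -0.24 (SE 0.0559, 95% interval -0.36 to -0.13, adjusted p = 0.0382). Without WT_Pam3 replicate 5 it was -0.21 (adjusted p = 0.00866). The adjusted p was 0.0509 to 0.106 without any 1 of KO_Pam3 replicates 1 and 3 to 6, the 6 KO_media libraries, WT_Pam3 replicates 2 and 4 and WT_media replicates 2 to 6. For Pfkfb4 it was also 0.0978 with library size alone and 0.243 without the filter. The differences of 0.34 for Slc16a1 and -0.31 for Bnip3, larger in size than that of Pfkfb4, had adjusted p-values of 0.214 and 0.588. For Slc2a1 it was 0.21 (adjusted p = 0.117), or 0.23 with an adjusted p of 0.0231 without WT_Pam3 replicate 5. Outside the members, Slc2a6 rose less in KO cells (-0.43, adjusted p = 0.0264).

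**Figure D4:**
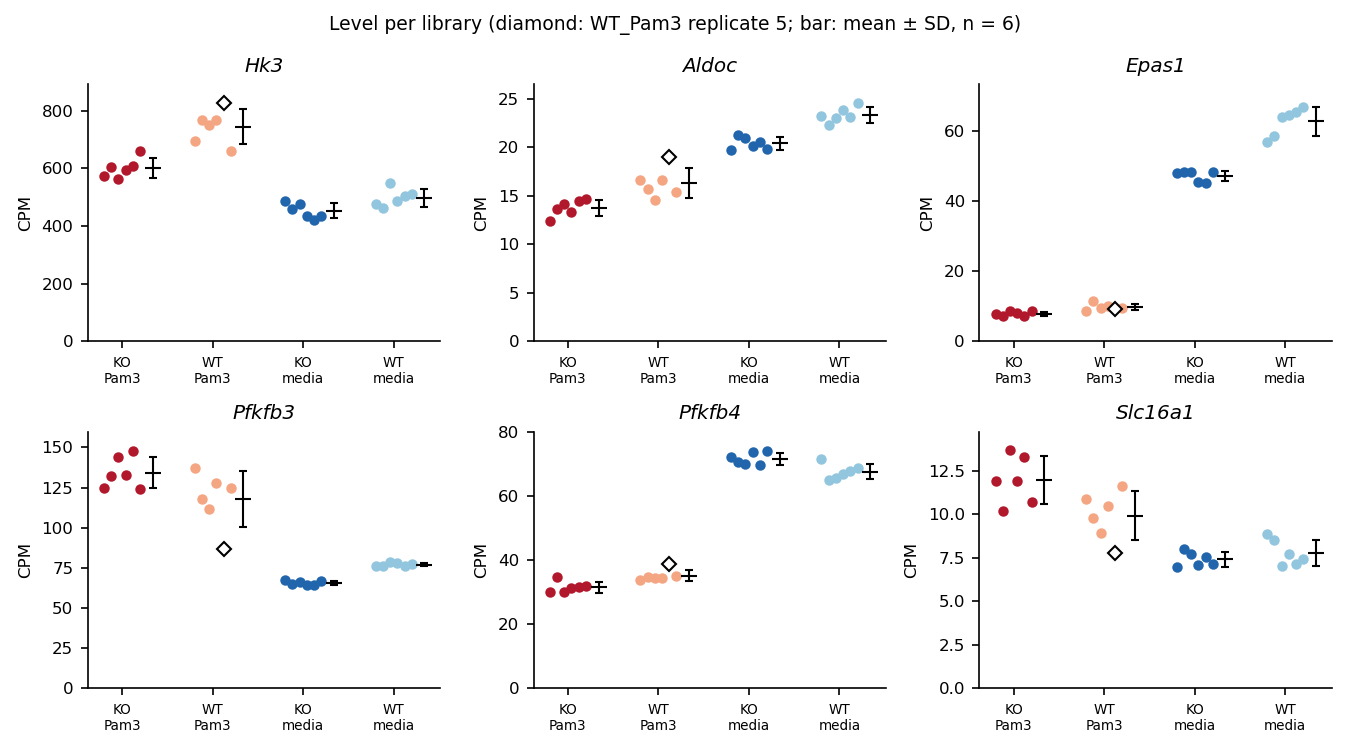
CPM of 6 members in each of the 24 libraries, by group, with the bar at the mean ± SD (n = 6) and WT_Pam3 replicate 5 drawn as a diamond; every axis starts at 0. Epas1 and Aldoc have lower means in KO than in WT libraries of the same treatment and Hk3 has a lower mean in KO_Pam3 than in WT_Pam3, while Pfkfb3 lies at 64.1 to 67.3 CPM in KO_media and 76.0 to 78.7 CPM in WT_media libraries and overlaps after Pam3.

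Gapdh, the enzyme after Tpi1 and a common reference gene, had too few counts to test. It had 32 reads over all 24 libraries, and ranged from 0 to 0.146 CPM in Pam3 libraries and from 0 to 0.0498 CPM in media libraries, where 3 reads correspond to 0.0627 to 0.111 CPM. The letters of the 50-base coding window below (bases 507 to 556 of the transcript) are found in 84 other genes of the annotation. It was picked as the first of the coding windows found in the most other genes.
Gapdh: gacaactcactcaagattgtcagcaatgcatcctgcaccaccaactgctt
Per the file headers only reads that align uniquely were counted. Of the 1224 windows of 50 bases in the Gapdh transcript, the read length of the study, 90.4% were found at other loci, in 222 other genes of which 203 are annotated as processed pseudogenes, and 117 were not shared. The same share was 72.2% for Eno1, 68.0% for Pgk1, 41.5% for Pgam1 and 30.5% for Pkm among the lower enzymes, and 48.9% for the HIF target Bnip3. It was 19.6% for Gpi1, 16.6% for Ldha, 13.5% for Aldoa and 7.51% for Tpi1, and 21 of the 32 gene models had no shared window. Over all 24 libraries Eno1 had 39417 reads, Pgk1 2697, Bnip3 1095 and Pgam1 452. With these shares, levels of Gapdh, Pgk1, Pgam1, Bnip3 and Eno1 are uncertain as levels. Whether and how far the shared sequence lowered them was not tested. Fold changes between groups compare only the reads counted as unique, and where in the transcript those reads lie was not tested.

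**Figure D5:**
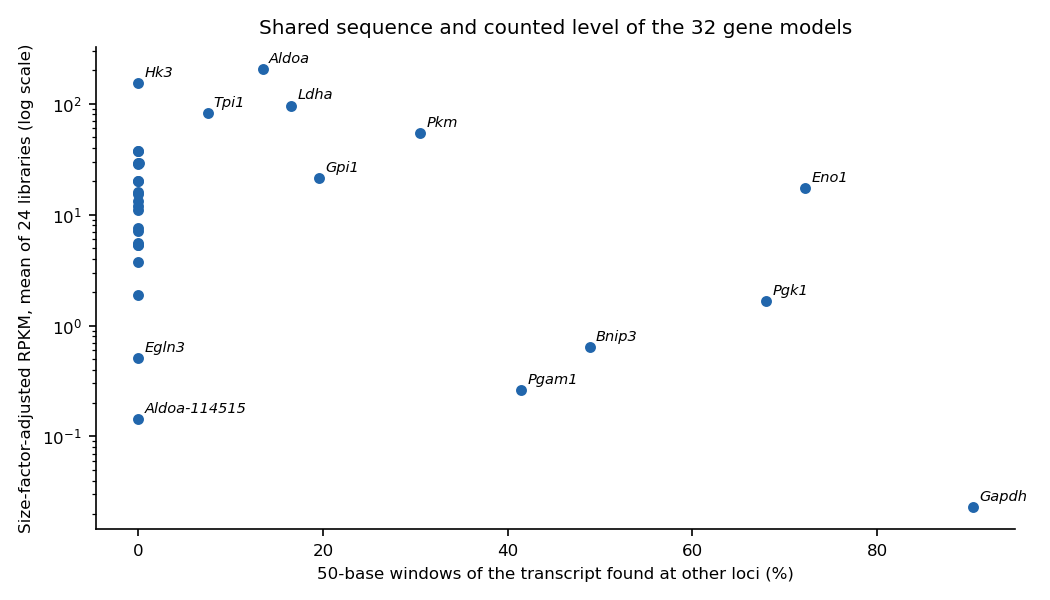
Share of the 50-base windows of each member's transcript that are found at other loci (x axis, %) against its mean level over 24 libraries in size-factor-adjusted RPKM (y axis, log scale), 1 point per gene model. Gapdh lies at 90.4% with the lowest level, and the 21 models with no window at other loci span the range from Hk3 down to the second Aldoa model.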

How the data were processed

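PolyA RNA of 24 libraries was sequenced as single reads of 50 bases on a HiSeq4000 with TruSeq RNA v2 kits, per the labels' protocols. The kit does not mark strand. The counts that the authors deposited are reads aligning uniquely to each gene model, per the file headers, from GSNAP alignment to GRCm38, per the submitters' processing notes. The deposited RPKM values are adjusted by a size factor per sample, per the file headers. They were used here only to compare genes per length. IDs were paired with symbols through GENCODE M21: 52403 of 52636 matched, and the 233 without a symbol held 0.0196% of reads. Counts were fitted with edgeR 4.0.16 under R 4.3.3 (filterByExpr, TMM, quasi-likelihood test, 1 mean per group, all 24 libraries), with Benjamini-Hochberg adjustment over 14435 genes. The biological coefficient of variation was 8.21%. The 5 contrasts share libraries: both genotype contrasts and both Pam3 contrasts draw on the same 4 groups. SE is the log2 fold change divided by the square root of the test's F. The script was tested on simulated counts. Depth was 31302011 to 40663152 counts, and 3 counts, the limit that a count of 0 allows, are 0.0627 to 0.111 CPM, covering counting error only. Alternatives were DESeq2 1.42.0 size factors and test, library size alone, no filter, 12 libraries per fit and leaving out each library. Shared windows were found by matching each 50-base window of a member's transcript to all other annotated transcripts. All members are named, and beside them Ninj1, markers of the cell type lists reported and, per comparison, up to 4 genes of each neighbouring list with the smallest adjusted p among those past the test. Pfkfb1 and Pfkfb2 are named as further isozymes of a member family. The members and lists were chosen with earlier results of these data known. One marker list is not reported here.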

Additional observations from a re-analysis of the deposited data

Results flagged for a closer look

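In 13 of 120 groups of 6 libraries, 1 library stood farther from the others than a Dixon test at 95% allows, where chance marks about 1 group in 20. A total of 5 of these are WT_Pam3 replicate 5. In it Hif1a was at 151 CPM (others 263 to 288), Pfkfb4 at 38.8 (33.9 to 34.9), Aldoa at 731 (524 to 574), Eno1 at 95.7 (57.7 to 67.3) and Pkm at 274 (174 to 190). In KO_Pam3 replicate 1, Aldoa was at 505 CPM (others 564 to 598), Eno1 at 64.2 (72.2 to 75.8) and Vegfa at 10.3 (8.52 to 9.12). Pfkfb4 was at 34.7 CPM in KO_Pam3 replicate 2 (others 30.0 to 31.8) and Pfkm at 24.1 CPM in KO_Pam3 replicate 3 (20.5 to 21.8). Hk1 was at 84.8 CPM in KO_media replicate 6 (others 93.4 to 94.1), Gpi1 at 77.3 CPM in KO_media replicate 4 (72.6 to 73.5) and Pdk1 at 53.1 CPM in WT_media replicate 2 (51.9 to 52.3). The Pam3 response was called different between KO and WT cells for Pfkfb3 (log2 difference 0.42) and Pfkfb4 (-0.24), by the interaction term of the edgeR fit. Each of these calls was lost when certain single libraries were left out.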

How the results depend on the processing

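No paired analysis was possible because the labels give the libraries no replicate numbers. Of 150 member results, 147 kept their side of the threshold with DESeq2's size factors in edgeR, 133 with library size alone, 146 without the filter and 143 with DESeq2. In fits of 12 libraries 111 of 120 did. A change of direction was counted only where a result was called in either fit. Leaving out each library gave 3600 values, of which 3519 were kept by this rule, 64 lost the call, 17 gained it and 0 reversed. Uncalled results could change sign. The KO over WT difference of Hif1a after Pam3, for example, went from 0.07 to -0.04 without WT_Pam3 replicate 5. Library size alone turned the Pam3 change of Hk3 to -0.07, of Pdk3 to -0.45 and of Hk1 to -0.02 in KO cells, and of Egln1 to -0.08, of Slc16a1 to -0.17, of Pdk3 to -0.42 and of Hk1 to -0.05 in WT cells, with all genes shifted by -0.56 in KO and -0.58 in WT cells. Members lower in KO_media than WT_media numbered 1 with no filter, 4 with DESeq2 and 5 in 12 libraries, with 1 higher there; all genes called numbered 693 with DESeq2 and 1112 in 12 libraries. Members higher in KO_Pam3 than WT_Pam3 numbered 3 with library size alone, 2 with DESeq2 and 0 in 12 libraries, where 1 was lower (Hk3); all genes called numbered 366 with no filter, 882 with DESeq2 and 177 in 12 libraries. Members whose response was lower in KO numbered 0 with library size alone and 0 with no filter, and 2 were higher with DESeq2; all genes called numbered 63 with no filter and 393 with DESeq2. The cause was not tested. Without 1 library at a time, members called in media ranged from 0 to 0 higher and 1 to 4 lower (all genes 238 to 1274), after Pam3 from 0 to 2 higher and 3 to 4 lower (383 to 1178), for Pam3 in KO from 22 to 22 higher and 6 to 7 lower (12184 to 12773), for Pam3 in WT from 21 to 22 higher and 6 to 7 lower (12157 to 12632), and for the difference of responses from 0 to 2 higher and 0 to 1 lower (28 to 544). The highest counts of all genes, 1274, 1178 and 544, are those without WT_Pam3 replicate 5. Few counts limit what can be said of Gapdh, the second Aldoa model, Pgam1 and Bnip3, and the cause of the low counts was not tested.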
